A study of Homo sapiens with 12 samples.

Results

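The 37 genes described here encode the calcium handling machinery and the ion channels of heart muscle cells. They were taken by symbol from a list of members, and all 37 were found among the 19040 genes that held values. The list was written from the genes' known roles and not from their levels in these samples, although results of these samples were already known when it was proposed. By role, 9 members serve calcium release from the sarcoplasmic reticulum, 4 serve calcium uptake and extrusion, 7 are subunits of voltage-gated calcium channels, 7 belong to repolarizing potassium channels, 5 to inward rectifier and ATP-sensitive potassium channels, 2 are pacemaker channels and 3 form gap junctions.

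RNA was sequenced in 12 libraries of H9, an established human embryonic stem cell line, during differentiation toward heart muscle. All groups share the line and the differentiation protocol and differ in what the medium held from day 0 until harvest: the vehicle DMSO, F-53B at 60 µM or PFOS at 60 µM, each sampled at day 8 and at day 12 with 2 libraries. PFOS is a perfluorinated alkyl sulfonate, and F-53B is a related sulfonate whose chain carries an ether oxygen and a chlorine. A single line was used. Nothing in the labels says that replicates 1 and 2 were separate cultures, and the spread that the p-values rest on may therefore be technical.

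In a heart muscle cell, an action potential opens L-type calcium channels, and the calcium that enters opens ryanodine receptors on the sarcoplasmic reticulum, which release much more. Relaxation follows as the SERCA pump returns calcium to the store and the sodium-calcium exchanger expels it, while potassium channels end the action potential. Gap junctions pass the current from cell to cell, and pacemaker and T-type calcium channels are best known from cells that beat on their own, which in the embryo include most young cardiomyocytes.

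Values are FPKM, fragment counts scaled to transcript length and library size, so they can be set side by side between genes. Each library summed to between 389249 and 439918 FPKM and had 12915 to 13292 genes at 1 FPKM or more. The members together held 0.153% and 0.171% of all FPKM with DMSO at day 8, against 0.084% and 0.087% with F-53B and 0.118% and 0.133% with PFOS. At day 12 their share was 0.242% and 0.241% with DMSO, 0.128% and 0.12% with F-53B and 0.191% and 0.185% with PFOS, so at both days the 3 treatments did not overlap. The 2 libraries of day 12 F-53B stood further apart than those of any other group: 134 genes differed more than 2-fold in FPKM + 1 between them, among them TRDN, HRC, SLC8A1 and KCNIP2, against 10 to 39 genes and no member in the other groups. Leaving out either of these 2 libraries kept all 28 calls of members with F-53B at day 12.

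Markers of the cell types that such cultures can hold moved along with the members. The summed level of 13 sarcomere genes, the contractile proteins that define heart muscle, was 7544.5 and 9774.4 FPKM with DMSO at day 8, 1331 and 1266.3 with F-53B and 4371.2 and 6791.4 with PFOS. At day 12 the sum was 13892.1 and 13834.9 FPKM with DMSO, 3343.5 and 1408.5 with F-53B and 12880.1 and 12162.1 with PFOS. With F-53B, 12 of the 13 fell at day 8 and all 13 at day 12, while with PFOS limma called 0 of 13 at day 8 (2 at an unadjusted p under 0.05) and 1 at day 12. MYL2, the ventricular light chain, was listed at 0 in both day 8 F-53B libraries, and at no more than 0.14 FPKM in the other day 8 libraries.

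The summed level of 10 epicardial markers moved the other way. It was 158.1 and 111.8 FPKM with DMSO, 508.4 and 546.3 with F-53B and 279.5 and 204.9 with PFOS at day 8, and 43.8 and 47.8, 615.2 and 818.8, and 153.7 and 162.4 FPKM in the same order at day 12. Of these 10 markers, 9 rose with F-53B at day 8 and all 10 at day 12, and 3 and 8 rose with PFOS. The sum of 8 fibroblast and matrix markers was 1.9-fold that of DMSO with F-53B at day 8 and 5.16-fold at day 12, and 1.26-fold and 2.22-fold with PFOS, with 7 of 8 up and 1 down at day 8 and all 8 up at day 12 with F-53B, and 4 of 8 up with PFOS at each day. Sums of smooth muscle markers were 5.09-fold and 1.61-fold lower with F-53B at the 2 days, and those of hepatic and endoderm markers 2.75-fold and 28.1-fold lower. Of the 6 smooth muscle markers 5 fell and 1 rose at day 8 and 3 fell and 1 rose at day 12, and of 7 hepatic and endoderm markers tested 5 fell and 1 rose, then all 7 fell. Sums of endothelial markers were 1.2-fold and 1.63-fold lower with F-53B. Of 7 endothelial markers tested, 5 fell at day 8, and 6 fell and 1 rose at day 12. Sums of neural markers were 3.62-fold and 1.37-fold higher, but only 2 neural markers were tested, of which 1 rose at each day. TUBB3 alone had a mean of 22.58 FPKM in the neural sum of 23.95 with F-53B at day 8. SOX1 was at 0 in both libraries of day 8 F-53B and of day 8 DMSO. In bulk RNA, fewer cells of a type and less RNA per cell cannot be told apart. What part any shift in cell types has in the changes of members was not tested.

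Most members changed with F-53B. Of the 37, 32 reached 1 FPKM in at least 2 libraries and were tested, on log2(FPKM + 1) with limma and Benjamini-Hochberg adjustment over 14080 genes, with an adjusted p under 0.05 as the threshold. With F-53B at day 8, 20 members fell and 8 rose, and of all genes tested 44.0% passed (20.5% fell and 23.5% rose). At day 12, again 20 fell and 8 rose, against 56.2% of all genes (28.0% fell and 28.2% rose). The median log2 change over the 32 members was -0.70 at day 8 and -1.16 at day 12, where the median over all genes tested was 0.02 and 0.00. As shares of the 32, 62.5% fell and 25% rose at each day, so the share that rose was near that of all genes. In all, 19 members fell at both days, 7 rose at both, 4 passed at 1 day only, and CASQ2 and ABCC9 passed in none of the 4 comparisons with DMSO. The share of all genes that passed at both days was not computed.

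Fewer members changed with PFOS. At day 8, 7 fell and 2 rose, against 6.77% of all genes (3.08% fell and 3.69% rose), with a median log2 change of -0.28 over the 32 members and 0.03 over all genes. At day 12, 4 fell and 3 rose, against 12.3% of all genes (5.62% fell and 6.67% rose), with medians of -0.20 and 0.01. ASPH and ATP2A2 fell with PFOS at both days, and KCNJ3 rose at both. The counts for PFOS rest on single libraries: without day 8 DMSO replicate 2 or day 8 PFOS replicate 1 the day 8 count was 0 or 1, and leaving out 1 library left 2 to 5 members at day 12. F-53B and PFOS were compared with the same DMSO libraries, so their changes are given side by side and were tested against each other directly.

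**Figure D1:**
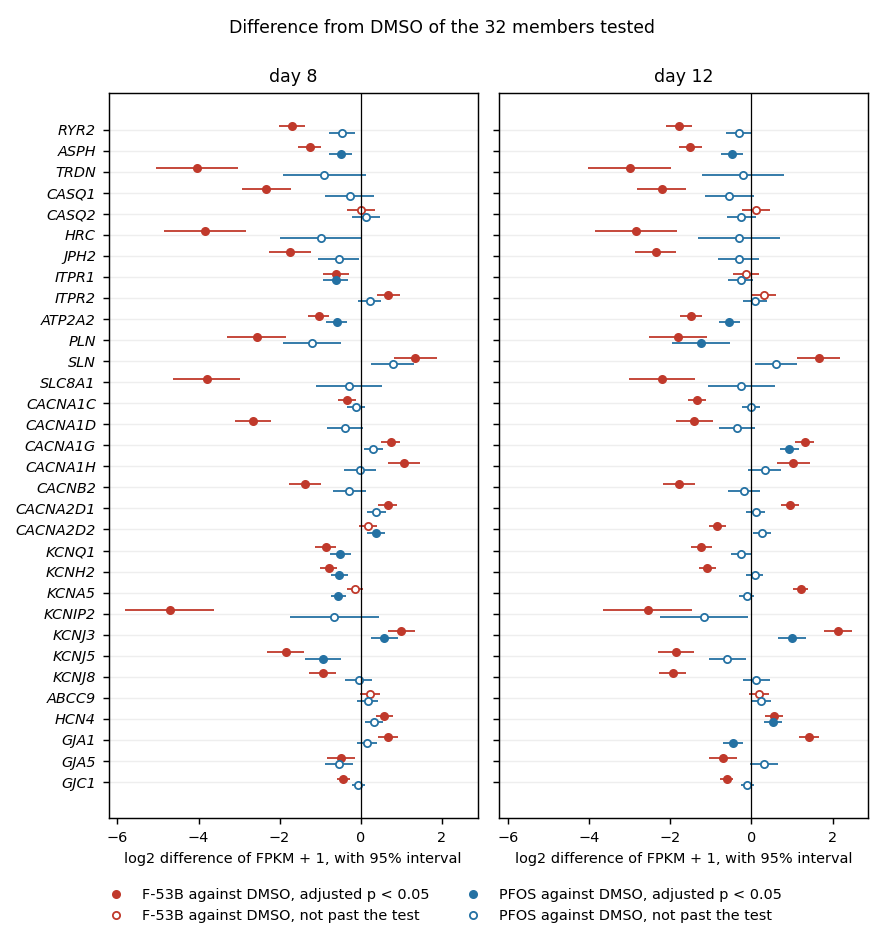
Log2 difference of FPKM + 1 from the DMSO libraries of the same day for each of the 32 members tested, with F-53B in red, PFOS in blue and bars for 95% intervals; filled points passed an adjusted p of 0.05. Most red points lie left of 0, 20 of them filled at each day, while most blue points are open and nearer to 0.

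In DMSO, 16 members rose and 3 fell from day 8 to day 12, against 37.7% of all genes (19.5% rose and 18.2% fell), with a median log2 change of 0.52 over the members and 0.03 over all genes. ATP2A2 had the highest mean at both days, 104 ± 16.7 FPKM (SD, n = 2) at day 8 and 176 ± 0.714 at day 12. Of the 16 that rose, 9 belong to release, uptake or extrusion (RYR2, ASPH, TRDN, CASQ1, CASQ2, JPH2, ATP2A2, PLN and SLC8A1), and the 3 that fell were SLN, KCNJ3 and KCNA5. Some of these calls depended on single DMSO libraries. TRDN and SLC8A1 lost theirs when any 1 of the DMSO libraries was left out, and also with a pseudocount of 0.1. JPH2, PLN and KCNJ5 lost theirs without day 8 replicate 1 or without either day 12 library, and GJA1 without day 12 replicate 1.

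For a view of the sequence near these genes, the 250 bases before an annotated start site were taken from RefSeq's promoter table (build GRCh38.p14). The table had a window for 30 of the 37 members. Shown are the members with 1 window nearly free of annotated exons that fell the most with F-53B at day 8 (HRC, CACNA1D and PLN), and the one that rose the most at day 12 (KCNA5), each 5′ to 3′ on the gene's strand. Capitals mark a match to AGATAA, a form of the site bound by GATA factors, or to CATTCC, bound by TEAD factors, on either strand. Only these exact letters were searched, so other forms of the GATA site were neither marked nor counted.
HRC, chr19:49155397-49155646, minus strand: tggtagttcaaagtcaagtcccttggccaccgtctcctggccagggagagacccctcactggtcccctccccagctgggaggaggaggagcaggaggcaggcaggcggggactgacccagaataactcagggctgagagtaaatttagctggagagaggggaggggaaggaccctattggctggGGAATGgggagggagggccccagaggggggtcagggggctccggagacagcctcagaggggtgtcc
CACNA1D, chr3:53494361-53494610, plus strand: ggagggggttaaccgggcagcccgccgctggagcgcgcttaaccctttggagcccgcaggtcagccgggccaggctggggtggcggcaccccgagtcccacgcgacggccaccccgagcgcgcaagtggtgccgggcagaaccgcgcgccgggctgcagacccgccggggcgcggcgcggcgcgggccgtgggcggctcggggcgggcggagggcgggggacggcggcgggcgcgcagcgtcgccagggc
PLN, chr6:118548046-118548295, plus strand: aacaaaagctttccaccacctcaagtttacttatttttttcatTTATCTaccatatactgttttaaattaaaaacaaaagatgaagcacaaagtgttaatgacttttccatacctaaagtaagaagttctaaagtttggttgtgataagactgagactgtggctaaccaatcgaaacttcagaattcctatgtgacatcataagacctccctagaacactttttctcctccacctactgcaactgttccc
KCNA5, chr12:5043629-5043878, plus strand: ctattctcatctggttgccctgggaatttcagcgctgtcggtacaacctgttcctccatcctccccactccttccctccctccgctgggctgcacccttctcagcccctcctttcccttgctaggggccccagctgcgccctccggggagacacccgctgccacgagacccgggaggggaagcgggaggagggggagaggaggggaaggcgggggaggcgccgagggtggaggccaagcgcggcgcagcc
The CACNA1D window lies inside the span of its gene (53328963 to 53813733), so it precedes a start within the gene. The HRC window holds CATTCC on the opposite strand, read as GGAATG, and the PLN window AGATAA on the opposite strand, read as TTATCT. GC content differed widely between the windows shown, with 64% for HRC, 81.6% for CACNA1D, 34.8% for PLN and 68.8% for KCNA5. The median over all 35114 windows of the table was 58%. AGATAA was present in 9.17% of all windows and in 2 of 30 members (SLC8A1 and PLN), and CATTCC in 11.9% of windows and in 3 of 30 (GJA5, RYR2 and HRC). A member was counted if any of its windows matched, and the 30 members hold 47 windows. The shares by window and by member are therefore unlike measures. Neither the MEF2 site (0.515% of windows) nor the CArG box of SRF (1.16%) was found in a member's window, which says only that these letters are not in these 250 bases.

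The calcium release genes fell with F-53B at both days, and less or not detectably with PFOS. Of 9 members, 7 fell and ITPR2 rose with F-53B at day 8, and 6 fell and none rose at day 12; with PFOS, ASPH and ITPR1 fell at day 8 and ASPH alone at day 12. RYR2 (chromosome 1, 237042205 to 237833988, GRCh38), the release channel itself, read 14.7 and 14.1 FPKM with DMSO, 3.52 and 4.0 with F-53B and 8.67 and 11.9 with PFOS at day 8. By day 12 it read 27.7 and 28.7 FPKM with DMSO, 8.27 and 6.70 with F-53B and 25.5 and 19.98 with PFOS. The F-53B libraries were below the DMSO and the PFOS libraries at both days, and the PFOS libraries lay between. RYR2 fell with F-53B by 1.69 on the log2 scale at day 8 (SE 0.15, adjusted p = 1.38e-05) and by 1.79 at day 12 (SE 0.15, adjusted p = 2.08e-06). With PFOS its log2 change was -0.46 at day 8 (SE 0.15, adjusted p = 0.0845) and -0.31 at day 12 (SE 0.15, adjusted p = 0.195).

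TRDN, or triadin, and ASPH, whose gene also encodes junctin, anchor the release complex, and HRC and the calsequestrins CASQ1 and CASQ2 bind calcium inside the store. TRDN (chromosome 6, 123216339 to 123637093) read 17.1 and 21.1 FPKM with DMSO, 0.21 and 0.22 with F-53B and 7.33 and 12.9 with PFOS at day 8. Among the members tested it kept the lowest share of its DMSO level with F-53B at that day. At day 12 TRDN read 51.6 and 55.1 FPKM with DMSO, 10.1 and 3.13 with F-53B and 46.3 and 45.5 with PFOS, so the F-53B libraries were again the lowest but differed from each other. The mean FPKM of TRDN was 89.0-fold lower with F-53B than with DMSO at day 8 and 8.10-fold lower at day 12, and it fell by 4.04 and 3.01 on the log2(FPKM + 1) scale (adjusted p = 0.000307 and 0.000731). HRC (chromosome 19, 49151198 to 49155424) read 43.7 and 49.5 FPKM with DMSO, 2.79 and 1.92 with F-53B and 19.4 and 27.2 with PFOS at day 8. Its day 12 values were 72.3 and 71.8 FPKM with DMSO, 15.7 and 5.19 with F-53B and 68.8 and 48.9 with PFOS. Its groups did not overlap at either day, and the mean FPKM was 19.8-fold and 6.90-fold lower with F-53B (adjusted p = 0.000392 and 0.000973).

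ASPH (chromosome 8, 61500556 to 61714640) read 53.9 and 56.2 FPKM with DMSO, 22.8 and 22.0 with F-53B and 33.1 and 45.8 with PFOS at day 8. The day 12 libraries gave 102 and 102 FPKM with DMSO, 38.5 and 32.1 with F-53B and 70.6 and 74.5 with PFOS. Its groups were in the same order at both days, DMSO above PFOS above F-53B, without overlap. ASPH fell with F-53B by 1.26 (SE 0.13, adjusted p = 2.91e-05) and 1.51 (SE 0.13, adjusted p = 2.35e-06), and with PFOS by 0.49 (SE 0.13, adjusted p = 0.0423) and 0.49 (SE 0.13, adjusted p = 0.0297). For PFOS this did not hold without single libraries: its adjusted p rose to as much as 0.296 at day 8 without PFOS replicate 1, and lay between 0.0641 and 0.154 at day 12 without any 1 of the 4 libraries.

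CASQ1 (chromosome 1, 160190556 to 160201886), the calsequestrin best known from skeletal muscle, was above CASQ2, the cardiac form, in FPKM in every library. It read 5.21 and 7.07 FPKM with DMSO, 0.45 and 0.37 with F-53B and 4.0 and 5.89 with PFOS at day 8. At day 12 CASQ1 read 17.5 and 17.1 FPKM with DMSO, 4.46 and 1.84 with F-53B and 11.1 and 11.9 with PFOS, so DMSO and PFOS overlapped at day 8 and no groups did at day 12. It fell with F-53B by 2.33 (SE 0.27, adjusted p = 0.000145) and by 2.22 (adjusted p = 8.33e-05), and with PFOS its log2 change was -0.27 and -0.55 (SE 0.27 and 0.27, adjusted p = 0.604 and 0.219). CASQ2 stayed at or under 1.73 FPKM and passed only between days in DMSO, where its mean went from 0.12 ± 0.0141 to 1.22 ± 0.346 FPKM (SD, n = 2; log2 change 0.98, adjusted p = 0.000615). The FPKM ratio of CASQ1 to CASQ2 within a library was 47.4 and 54.4 with DMSO at day 8, and 3.75 and 2.85 with F-53B. At day 12 this ratio was 12.0 and 17.6 with DMSO, 2.58 and 1.75 with F-53B and 15.9 and 11.7 with PFOS.

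JPH2 (chromosome 20, 44111695 to 44187578) encodes junctophilin, which holds the store against the cell membrane. It read 24.5 and 30.7 FPKM with DMSO, 6.92 and 8.10 with F-53B and 16.8 and 20.4 with PFOS at day 8. Its level at day 12 was 46.4 and 46.1 FPKM with DMSO, 11.1 and 5.94 with F-53B and 39.5 and 34.5 with PFOS, and its groups did not overlap at either day. JPH2 fell with F-53B by 1.74 (adjusted p = 0.000317) and by 2.37 (SE 0.23, adjusted p = 2.25e-05). The IP3 receptors ITPR1 and ITPR2, release channels that answer to hormone signals, were low, at 1.59 to 3.94 FPKM for ITPR1 and 0.71 to 1.94 for ITPR2. ITPR1 fell at day 8 with both compounds, by 0.61 with F-53B (adjusted p = 0.00503) and 0.62 with PFOS (SE 0.14, adjusted p = 0.0254). Without day 8 DMSO replicate 2 these became 0.0529 and 0.218, and without day 8 PFOS replicate 1 the second was 0.197. ITPR2 rose with F-53B at day 8 by 0.69 (adjusted p = 0.00144).

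**Figure D2:**
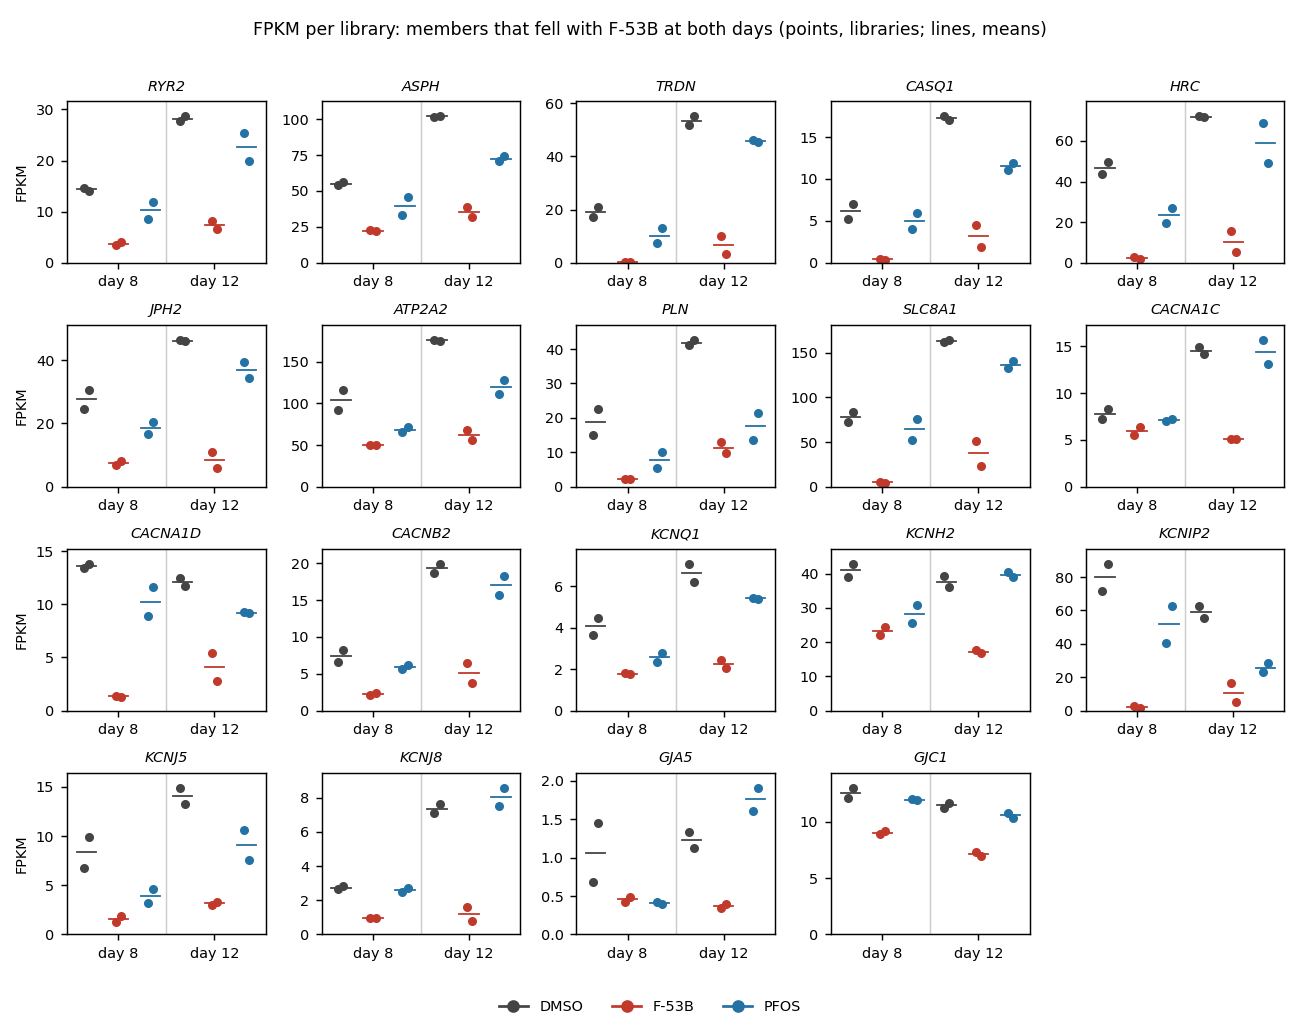
FPKM in each library (points) and group means (lines) for the 19 members that fell with F-53B at both days, with DMSO in grey, F-53B in red and PFOS in blue, day 8 left and day 12 right of the line in each panel. In all panels the 2 F-53B points lie below the 2 DMSO points of their day, and the day 12 F-53B points of TRDN, HRC, SLC8A1 and KCNIP2 are more than 2-fold apart in FPKM + 1.

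The genes of calcium uptake and extrusion split: the pump, its main brake and the exchanger fell with F-53B, and the second brake rose. ATP2A2 (chromosome 12, 110280756 to 110351093) encodes SERCA2, the pump that refills the store. It read 92.4 and 116 FPKM with DMSO, 49.98 and 49.9 with F-53B and 65.2 and 71.9 with PFOS at day 8. On day 12 the values were 176 and 175 FPKM with DMSO, 68.2 and 56.0 with F-53B and 111 and 129 with PFOS, and at both days DMSO was highest and F-53B lowest, without overlap. ATP2A2 fell by 1.04 (SE 0.12, adjusted p = 6.07e-05) and 1.49 (SE 0.12, adjusted p = 1.48e-06) with F-53B. With PFOS it fell by 0.59 (SE 0.12, adjusted p = 0.0143) and 0.55 (SE 0.12, adjusted p = 0.0124). Without 1 library the adjusted p for PFOS rose to as much as 0.159 at day 8 (DMSO replicate 2) and 0.102 at day 12 (PFOS replicate 1).

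PLN (chromosome 6, 118548298 to 118560730) and SLN (chromosome 11, 107707378 to 107719693) encode phospholamban and sarcolipin, small membrane proteins that slow the pump; sarcolipin is best known from atrial muscle. PLN read 14.9 and 22.5 FPKM with DMSO, 2.21 and 2.32 with F-53B and 5.31 and 10.1 with PFOS at day 8. In the day 12 libraries it read 41.1 and 42.6 FPKM with DMSO, 13.1 and 9.65 with F-53B and 13.7 and 21.4 with PFOS, with DMSO above both compounds at both days. SLN read 7.64 and 5.38 FPKM with DMSO, 19.4 and 16.7 with F-53B and 15.9 and 8.75 with PFOS at day 8. By day 12 it read 0.69 and 0.78 FPKM with DMSO, 3.93 and 5.06 with F-53B and 1.85 and 1.45 with PFOS, with DMSO below both compounds at both days. PLN fell with F-53B by 2.57 (SE 0.31, adjusted p = 0.000375) and 1.81 (adjusted p = 0.00138), and SLN rose by 1.35 (adjusted p = 0.00119) and 1.66 (SE 0.24, adjusted p = 0.000186). With PFOS, PLN had a log2 change of -1.21 at day 8 (SE 0.31, adjusted p = 0.0604) and fell by 1.24 at day 12 (SE 0.31, adjusted p = 0.0386, and as high as 0.187 without PFOS replicate 1). The log2 changes of SLN with PFOS were 0.79 and 0.61 (SE 0.24 and 0.24, adjusted p = 0.0746 and 0.124).

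The 2 brakes changed unequally within single libraries. The FPKM ratio of SLN to PLN was 0.513 and 0.239 in the DMSO libraries of day 8, 3.0 and 0.866 in the PFOS libraries, and 8.76 and 7.18 in the F-53B libraries. By day 12 DMSO gave ratios of 0.0168 and 0.0183, PFOS 0.135 and 0.0679, and F-53B 0.3 and 0.524. The order of the 3 treatments was thus the same at both days and no groups overlapped. Over time in DMSO, SLN fell by 2.10 (SE 0.24, adjusted p = 8.68e-05), its mean going from 6.51 ± 1.60 to 0.735 ± 0.0636 FPKM (SD, n = 2), while PLN rose by 1.15 (adjusted p = 0.0213, and as high as 0.118 without day 8 DMSO replicate 1). PLN also stood lower against the pump: the ratio of PLN to ATP2A2 in FPKM was 0.161 and 0.194 with DMSO at day 8, 0.0442 and 0.0465 with F-53B and 0.0814 and 0.141 with PFOS, and at day 12 it was 0.233 and 0.243, 0.192 and 0.172, and 0.123 and 0.166.

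SLC8A1 (chromosome 2, 40097270 to 40611053) encodes the sodium-calcium exchanger NCX1, which expels calcium from the cell. It read 72.4 and 83.4 FPKM with DMSO, 5.63 and 3.82 with F-53B and 52.7 and 76.4 with PFOS at day 8. Its day 12 values were 162 and 164 FPKM with DMSO, 51.7 and 23.1 with F-53B and 133 and 140.4 with PFOS. PFOS overlapped DMSO at day 8 and was below it at day 12, and F-53B was below both at each day. SLC8A1 fell with F-53B by 3.80 (SE 0.35, adjusted p = 0.000143) and 2.20 (SE 0.35, adjusted p = 0.00112). With PFOS its log2 changes were -0.29 and -0.25 (adjusted p = 0.684 and 0.695). Exons of SLC8A1 and of its antisense gene SLC8A1-AS1 share 2040 bases, 9.3% of its exonic bases, and since no strand setting is stated their reads cannot be told apart.

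Voltage-gated calcium channels did not move as 1 group. With F-53B, CACNA1C, CACNA1D and CACNB2 fell and CACNA1G, CACNA1H and CACNA2D1 rose at both days, and CACNA2D2 fell at day 12. CACNA1C (chromosome 12, 1970786 to 2697950) and CACNA1D (chromosome 3, 53328963 to 53813733) encode the pores of the L-type channels Cav1.2 and Cav1.3, and CACNB2 (chromosome 10, 18140677 to 18543557) a subunit that brings such pores to the membrane. CACNA1C read 7.19 and 8.32 FPKM with DMSO, 5.57 and 6.39 with F-53B and 7.01 and 7.18 with PFOS at day 8. The day 12 libraries gave 14.9 and 14.1 FPKM with DMSO, 5.08 and 5.10 with F-53B and 15.7 and 13.1 with PFOS. F-53B was below DMSO at both days, by a small step at day 8, and PFOS overlapped DMSO at day 12. CACNA1C fell with F-53B by 0.33 at day 8 (adjusted p = 0.0222) and 1.35 at day 12 (SE 0.10, adjusted p = 9.57e-07). The day 8 call was lost without DMSO replicate 2 (adjusted p = 0.166), without F-53B replicate 1 (0.168) and with libraries scaled to equal FPKM totals (0.0644).

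CACNA1D read 13.4 and 13.8 FPKM with DMSO, 1.35 and 1.30 with F-53B and 8.88 and 11.7 with PFOS at day 8. Its level at day 12 was 12.5 and 11.7 FPKM with DMSO, 5.46 and 2.74 with F-53B and 9.28 and 9.17 with PFOS, with F-53B below DMSO and PFOS at both days. It fell with F-53B by 2.65 (SE 0.20, adjusted p = 1.15e-05) and 1.41 (adjusted p = 0.000182). The 2 L-type pores were thus changed unequally at day 8. There the FPKM ratio of CACNA1C to CACNA1D was 0.536 and 0.602 with DMSO and 4.13 and 4.92 with F-53B. At day 12 no such difference was seen, as the ratio was 1.2 and 1.21 with DMSO and 0.93 and 1.86 with F-53B, which overlap. CACNB2 read 6.54 and 8.25 FPKM with DMSO, 2.09 and 2.38 with F-53B and 5.58 and 6.23 with PFOS at day 8. At day 12 CACNB2 read 18.7 and 19.9 FPKM with DMSO, 6.40 and 3.71 with F-53B and 15.7 and 18.3 with PFOS, again with F-53B the lowest, and it fell by 1.37 (SE 0.18, adjusted p = 0.000176) and 1.78 (SE 0.18, adjusted p = 1.19e-05). Of the exonic bases of CACNA1D, 6.8% are shared with the opposite-strand gene CHDH, and of those of CACNB2, 8.3% with an antisense gene.

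CACNA1G (chromosome 17, 50561068 to 50627474) and CACNA1H (chromosome 16, 1153121 to 1221772) encode the T-type pores Cav3.1 and Cav3.2, which open at low voltage. CACNA1G read 3.07 and 2.72 FPKM with DMSO, 5.50 and 5.54 with F-53B and 4.18 and 3.51 with PFOS at day 8. On day 12 the values were 3.68 and 3.44 FPKM with DMSO, 11.4 and 9.34 with F-53B and 7.82 and 7.62 with PFOS. The order was F-53B above PFOS above DMSO at both days, without overlap. CACNA1G rose with F-53B by 0.75 (SE 0.11, adjusted p = 0.00026) and 1.31 (SE 0.11, adjusted p = 1.83e-06), and with PFOS at day 12 by 0.94 (SE 0.11, adjusted p = 0.000346), after 0.31 at day 8 (SE 0.11, adjusted p = 0.109). CACNA1H read 6.59 and 5.09 FPKM with DMSO, 12.5 and 13.9 with F-53B and 6.70 and 4.78 with PFOS at day 8. In the day 12 libraries it read 5.38 and 5.17 FPKM with DMSO, 10.5 and 13.4 with F-53B and 8.15 and 5.72 with PFOS. PFOS overlapped DMSO at day 8, and F-53B was above both at each day, with a rise of 1.06 and 1.04 on the log2 scale (adjusted p = 0.00079 and 0.00055). With PFOS at day 12 its log2 change was 0.32 (SE 0.18, adjusted p = 0.275). Within libraries, CACNA1G stood at 0.427 and 0.327 of CACNA1C in FPKM with DMSO and 0.987 and 0.867 with F-53B at day 8, and at 0.247 and 0.244 with DMSO, 2.24 and 1.83 with F-53B and 0.499 and 0.583 with PFOS at day 12.

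CACNA2D1 (chromosome 7, 81946444 to 82443798) and CACNA2D2 (chromosome 3, 50362799 to 50504244) encode extracellular subunits of these channels. CACNA2D1 read 5.65 and 4.52 FPKM with DMSO, 8.19 and 9.10 with F-53B and 7.30 and 6.58 with PFOS at day 8. By day 12 it read 5.66 and 6.36 FPKM with DMSO, 12.3 and 12.8 with F-53B and 6.29 and 6.80 with PFOS, with F-53B highest at both days. It rose by 0.67 and 0.95 with F-53B (adjusted p = 0.000441 and 1.7e-05), and with PFOS at day 8 its log2 change of 0.39 missed the threshold (SE 0.11, adjusted p = 0.0504). CACNA2D2 read 10.8 and 9.06 FPKM with DMSO, 10.9 and 11.6 with F-53B and 13.5 and 12.8 with PFOS at day 8. Its day 12 values were 11.5 and 10.6 FPKM with DMSO, 6.27 and 5.20 with F-53B and 13.7 and 13.0 with PFOS. It was above DMSO with both compounds at day 8, where the change passed with PFOS (0.38, SE 0.10, adjusted p = 0.0445) and not with F-53B (0.17, adjusted p = 0.181). At day 12 it fell with F-53B by 0.84 (adjusted p = 2.78e-05) while PFOS stayed above DMSO (0.26, SE 0.10, adjusted p = 0.121). The PFOS call at day 8 was lost without DMSO replicate 2 (adjusted p = 0.318), PFOS replicate 1 (0.255) or PFOS replicate 2 (0.0777). CACNA2D2 shares 9.6% of its exonic bases with CYB561D2 on the opposite strand.

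Among the repolarizing potassium channels, KCNH2, KCNQ1 and KCNIP2 fell with F-53B at both days and KCNA5 rose at day 12. Of these 7 members 4 were tested; KCND2, KCND3 and KCNE1 did not reach 1 FPKM in 2 libraries. KCNH2 (chromosome 7, 150944961 to 150978315) encodes hERG, the channel of the rapid delayed rectifier current. It read 39.1 and 42.9 FPKM with DMSO, 22.2 and 24.4 with F-53B and 25.7 and 30.9 with PFOS at day 8. The day 12 libraries gave 39.3 and 36.1 FPKM with DMSO, 17.6 and 16.7 with F-53B and 40.4 and 39.1 with PFOS. PFOS was below DMSO at day 8 and overlapped it at day 12, while F-53B was below both at each day. KCNH2 fell with F-53B by 0.79 (SE 0.09, adjusted p = 7.84e-05) and 1.09 (SE 0.09, adjusted p = 2.66e-06). With PFOS it fell by 0.52 at day 8 (SE 0.09, adjusted p = 0.00864, but 0.103 when DMSO replicate 2 was left out and 0.096 when PFOS replicate 1 was), and its log2 change was 0.08 at day 12 (adjusted p = 0.643).

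KCNQ1 (chromosome 11, 2444684 to 2849110) encodes the pore of the slow delayed rectifier, and KCNE1 its subunit. KCNQ1 read 3.65 and 4.47 FPKM with DMSO, 1.80 and 1.74 with F-53B and 2.35 and 2.79 with PFOS at day 8. Its level at day 12 was 7.08 and 6.18 FPKM with DMSO, 2.43 and 2.05 with F-53B and 5.44 and 5.38 with PFOS, with PFOS between DMSO and F-53B at both days. It fell with F-53B by 0.87 (SE 0.12, adjusted p = 0.000159) and 1.24 (SE 0.12, adjusted p = 4.84e-06), and with PFOS by 0.50 at day 8 (SE 0.12, adjusted p = 0.025, and 0.222 without DMSO replicate 2 or 0.213 without PFOS replicate 1). With PFOS at day 12 the log2 change of KCNQ1 was -0.25 (SE 0.12, adjusted p = 0.189). KCNE1 ran from 0 to 1.03 FPKM over the 12 libraries.

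KCNIP2 (chromosome 10, 101825974 to 101843920) encodes KChIP2, the calcium-binding subunit of the transient outward channel. It read 71.8 and 88.0 FPKM with DMSO, 2.54 and 1.68 with F-53B and 40.5 and 62.7 with PFOS at day 8. On day 12 the values were 62.4 and 55.2 FPKM with DMSO, 16.3 and 4.94 with F-53B and 23.1 and 28.2 with PFOS. In each day's libraries DMSO was highest, PFOS lower and F-53B lowest, without overlap. With F-53B at day 8 KCNIP2 fell by 4.71 (SE 0.47, adjusted p = 0.000223), the largest change of the 32 members on the log2(FPKM + 1) scale, and at day 12 it fell by 2.56 (adjusted p = 0.00246). With PFOS the log2 changes were -0.65 and -1.17 (SE 0.47 and 0.47, adjusted p = 0.47 and 0.156). When only the libraries compared were fitted, the day 12 change with PFOS passed (adjusted p = 0.000264). KCND2 and KCND3, the pores that KChIP2 serves, stayed at or under 0.15 and 0.42 FPKM in all libraries. The antisense gene KCNIP2-AS1 shares 12.2% of the exonic bases of KCNIP2.

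KCNA5 (chromosome 12, 5043989 to 5046788) encodes Kv1.5, the ultrarapid delayed rectifier of atrial muscle. It read 7.88 and 8.75 FPKM with DMSO, 7.83 and 7.08 with F-53B and 5.53 and 5.15 with PFOS at day 8. In the day 12 libraries it read 4.73 and 4.99 FPKM with DMSO, 12.5 and 12.6 with F-53B and 4.32 and 4.48 with PFOS. At day 8 PFOS was lowest and F-53B just below DMSO, and at day 12 F-53B was far above the other groups. KCNA5 had a log2 change of -0.14 with F-53B at day 8 (adjusted p = 0.206) and rose by 1.21 at day 12 (SE 0.09, adjusted p = 5.89e-07). With PFOS it fell by 0.55 at day 8 (SE 0.09, adjusted p = 0.00373, and 0.0556 without DMSO replicate 2) and its log2 change was -0.12 at day 12 (SE 0.09, adjusted p = 0.405). In DMSO it fell between days by 0.67 (adjusted p = 0.000114), so the day 12 F-53B libraries were the only ones of that day above the day 8 DMSO libraries.

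The 2 subunits of the acetylcholine-gated atrial channel moved in opposite directions. KCNJ3 (chromosome 2, 154698299 to 154858352) and KCNJ5 (chromosome 11, 128891356 to 128921035) encode GIRK1 and GIRK4, which form that channel together. KCNJ3 read 11.2 and 8.64 FPKM with DMSO, 20.5 and 21.0 with F-53B and 16.9 and 13.8 with PFOS at day 8. By day 12 it read 0.61 and 0.69 FPKM with DMSO, 5.20 and 7.46 with F-53B and 2.16 and 2.44 with PFOS, with F-53B above PFOS above DMSO at both days. KCNJ5 read 6.77 and 9.95 FPKM with DMSO, 1.29 and 1.85 with F-53B and 3.17 and 4.60 with PFOS at day 8. Its day 12 values were 14.9 and 13.2 FPKM with DMSO, 3.0 and 3.31 with F-53B and 10.6 and 7.53 with PFOS, in the reverse order and again without overlap. KCNJ3 rose with F-53B by 1.003 (SE 0.15, adjusted p = 0.000364) and 2.13 (SE 0.15, adjusted p = 7.03e-07), and with PFOS by 0.58 (SE 0.15, adjusted p = 0.0445) and 0.999 (SE 0.15, adjusted p = 0.00179). Its PFOS call at day 8 was near the threshold and was lost under all 6 other settings, without DMSO replicate 2 (adjusted p = 0.322) and without PFOS replicate 1 (0.297).

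KCNJ5 fell with F-53B by 1.85 (SE 0.20, adjusted p = 6.56e-05) and 1.86 (SE 0.20, adjusted p = 2.34e-05). With PFOS it fell by 0.93 at day 8 (SE 0.20, adjusted p = 0.0226, and 0.19 without DMSO replicate 2 or 0.197 without PFOS replicate 1), and at day 12 the log2 change was -0.60 (SE 0.20, adjusted p = 0.0837). The FPKM ratio of KCNJ3 to KCNJ5 was 1.66 and 0.868 with DMSO at day 8, 15.9 and 11.4 with F-53B and 5.32 and 3.0 with PFOS. By day 12 DMSO gave ratios of 0.0409 and 0.0521, against 1.73 and 2.25 with F-53B and 0.203 and 0.324 with PFOS, again without overlap between treatments. In DMSO the pair also diverged over time, KCNJ3 falling by 2.72 (SE 0.15, adjusted p = 3.57e-07) and KCNJ5 rising by 0.71 (adjusted p = 0.0194, and as high as 0.152 without day 8 DMSO replicate 1).

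KCNJ8 (chromosome 12, 21764955 to 21775581) encodes Kir6.1, a pore of the channel that ATP closes, and ABCC9 (chromosome 12, 21797401 to 21942529) the SUR2 subunit around it. KCNJ8 read 2.63 and 2.83 FPKM with DMSO, 0.96 and 0.94 with F-53B and 2.50 and 2.69 with PFOS at day 8. The day 12 libraries gave 7.08 and 7.64 FPKM with DMSO, 1.63 and 0.79 with F-53B and 7.51 and 8.59 with PFOS. F-53B was below the other groups at both days, and PFOS overlapped DMSO at both. KCNJ8 fell with F-53B by 0.94 (SE 0.15, adjusted p = 0.000531) and 1.95 (SE 0.15, adjusted p = 1.25e-06). An antisense gene shares 10.8% of the exonic bases of KCNJ8. ABCC9 ran from 3.3 to 6.1 FPKM over the 12 libraries, and its log2 changes with F-53B were 0.23 and 0.18, with 95% intervals from -0.02 to 0.48 and from -0.07 to 0.43. With PFOS they were 0.17 and 0.23 (SE 0.11 and 0.11, adjusted p = 0.412 and 0.213). KCNJ2, the ventricular inward rectifier Kir2.1, stayed between 0.02 and 0.12 FPKM.

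HCN4 (chromosome 15, 73319859 to 73369264), the main pacemaker channel of the heart, was higher than in DMSO with both compounds. It read 31.4 and 28.5 FPKM with DMSO, 44.8 and 46.3 with F-53B and 42.1 and 34.5 with PFOS at day 8. Its level at day 12 was 46.4 and 43.9 FPKM with DMSO, 67.7 and 65.5 with F-53B and 70.1 and 60.8 with PFOS. Both compounds were above DMSO at both days, and F-53B and PFOS overlapped at day 12. HCN4 rose with F-53B by 0.59 (SE 0.10, adjusted p = 0.000714) and 0.55 (SE 0.10, adjusted p = 0.000637). With PFOS its log2 change was 0.34 at day 8 (SE 0.10, adjusted p = 0.0673) and it rose by 0.52 at day 12 (SE 0.10, adjusted p = 0.0065, and up to 0.0703 without DMSO replicate 2). In DMSO it rose between days by 0.58 (adjusted p = 0.000963). HCN2 stayed between 0.26 and 0.98 FPKM and was not tested.

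The gap junction genes split as well. GJA1 (chromosome 6, 121435577 to 121449727) encodes connexin 43, found in working muscle and in many other cell types. It read 33.1 and 33.1 FPKM with DMSO, 53.8 and 52.7 with F-53B and 37.8 and 36.4 with PFOS at day 8. On day 12 the values were 47.0 and 44.9 FPKM with DMSO, 106 and 145 with F-53B and 32.9 and 33.3 with PFOS. F-53B was above the other groups at both days, and PFOS moved from just above DMSO at day 8 to below it at day 12. GJA1 rose with F-53B by 0.67 (SE 0.11, adjusted p = 0.000666) and 1.41 (SE 0.11, adjusted p = 1.49e-06). With PFOS its log2 change was 0.16 at day 8 (SE 0.11, adjusted p = 0.435), and it fell by 0.46 at day 12 (SE 0.11, adjusted p = 0.022), a call that was lost when any 1 of the 4 libraries was left out (adjusted p from 0.0577 to 0.135).

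GJC1 (chromosome 17, 44798448 to 44830816) encodes connexin 45 of early and conducting heart muscle, and GJA5 (chromosome 1, 147756199 to 147773362) connexin 40 of the atria. GJC1 read 12.1 and 13.0 FPKM with DMSO, 8.87 and 9.20 with F-53B and 12.0 and 11.9 with PFOS at day 8. In the day 12 libraries it read 11.2 and 11.7 FPKM with DMSO, 7.29 and 6.97 with F-53B and 10.8 and 10.3 with PFOS, with F-53B below the DMSO and PFOS libraries of each day. GJC1 fell with F-53B by 0.43 (SE 0.07, adjusted p = 0.000658) and 0.62 (SE 0.07, adjusted p = 2.69e-05). With PFOS its log2 changes were -0.06 and -0.11 (SE 0.07 and 0.07, adjusted p = 0.664 and 0.37). The FPKM ratio of GJA1 to GJC1 was 2.74 and 2.54 with DMSO and 6.07 and 5.73 with F-53B at day 8, and 4.18 and 3.85 with DMSO, 14.5 and 20.8 with F-53B and 3.04 and 3.23 with PFOS at day 12. GJA5 ran from 0.34 to 1.91 FPKM and fell with F-53B by 0.48 (SE 0.16, adjusted p = 0.0285) and 0.70 (SE 0.16, adjusted p = 0.00267). With PFOS the log2 changes of GJA5 were -0.53 and 0.31 (SE 0.16 and 0.16, adjusted p = 0.0687 and 0.234). Its day 8 call with F-53B was lost without DMSO replicate 2 (adjusted p = 0.278) or either F-53B library (0.122 and 0.0819), and 20.3% of its exonic bases are shared with an antisense gene.

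**Figure D3:**
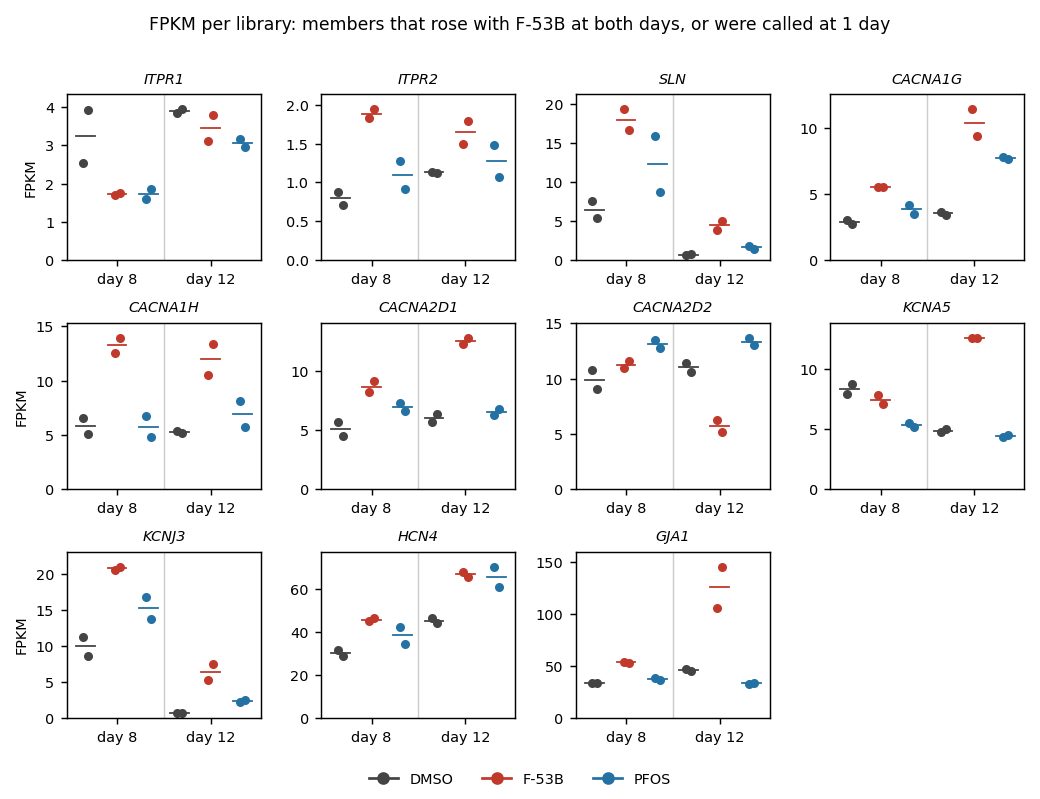
FPKM in each library (points) and group means (lines) for the 7 members that rose with F-53B at both days and the 4 that passed at 1 day only, with colours and days as in the plot of the members that fell. Both F-53B points of SLN, CACNA1G, CACNA1H, CACNA2D1, KCNJ3, HCN4 and GJA1 lie above both DMSO points at each day, and KCNA5 stands apart at day 12 only.

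**Figure D4:**
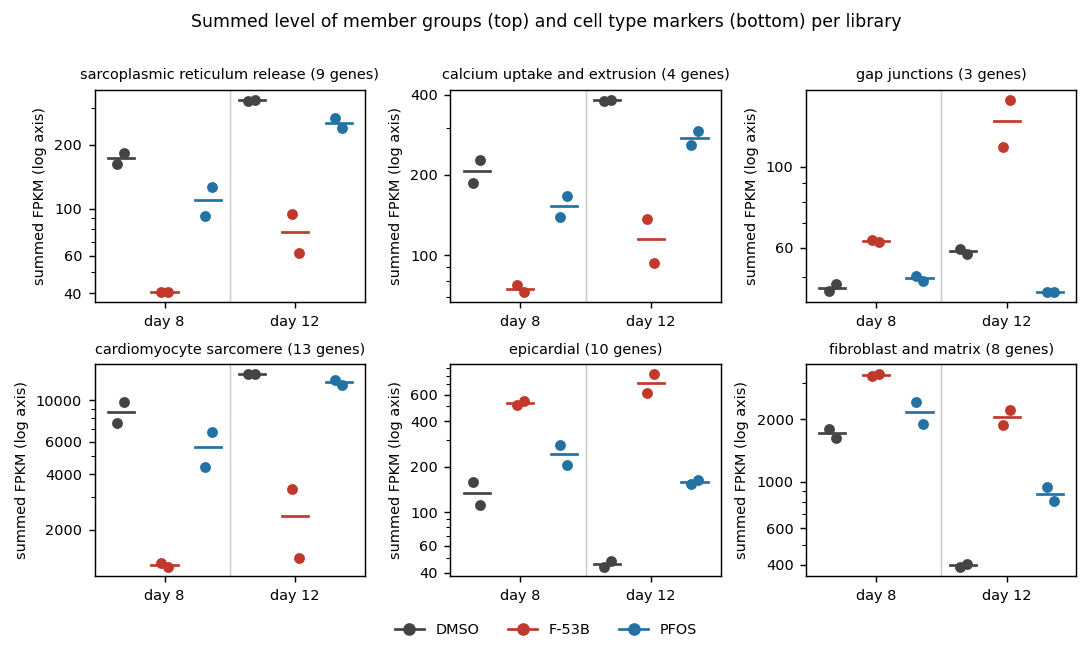
Summed FPKM per library (points, log axis) and group means (lines) for 3 groups of members in the top row and for 3 lists of cell type markers in the bottom row. The release and the uptake genes are lowest with F-53B at both days, as the sarcomere genes are, while the gap junction sum, in which GJA1 is the largest term and GJC1 and GJA5 fell, and the epicardial and the fibroblast and matrix sums are highest with F-53B.

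Summed by role, some groups of members were lower with F-53B and others higher. The 9 release genes summed to 173.0 ± 14.6 FPKM with DMSO at day 8 (SD, n = 2), 40.38 ± 0.0849 with F-53B and 109.7 ± 24.7 with PFOS, and the F-53B sum was 4.28-fold below DMSO at day 8 and 4.17-fold below at day 12. The 4 uptake and extrusion genes were 2.77-fold and 3.31-fold lower in sum and the repolarizing channels 3.78-fold and 2.52-fold lower, where the sarcomere genes were 6.67-fold and 5.83-fold lower. The repolarizing sum follows KCNIP2, which in DMSO held 79.88 of 134.4 FPKM at day 8 and 58.8 of 109.1 at day 12. With F-53B the mean of KCNIP2 was 2.11 and 10.6 FPKM. KCNH2 and KCNQ1 also fell at both days, and KCNA5 rose at day 12. The 7 calcium channel subunits changed less in sum, 1.09-fold and 1.31-fold lower, with members that moved both ways. Pacemaker and gap junction sums were 1.5-fold and 1.34-fold that of DMSO with F-53B at day 8, and 1.46-fold and 2.27-fold at day 12. The gap junction sum follows GJA1, while GJC1 and GJA5 both fell. The inward rectifier and ATP-sensitive channel sum was 1.12-fold that of DMSO with F-53B at day 8, and 1.65-fold lower at day 12. No member was called in opposite directions at the 2 days: KCNJ3 rose and KCNJ5 and KCNJ8 fell at both. In DMSO the mean of KCNJ3 went from 9.94 FPKM at day 8 to 0.65 at day 12, so it weighed less in the later sum. With PFOS the release genes were 1.58-fold and 1.28-fold lower in sum, beside 1.55-fold and 1.11-fold for the sarcomere genes. These sums are descriptions without a test.

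F-53B and PFOS were then compared directly at the same dose, as 1 pair at each of 2 days. Relative to PFOS, 16 members were lower and 5 higher with F-53B at day 8, against 28.3% of all genes (15.0% lower and 13.3% higher), with a median log2 difference of -0.32 over the members and -0.01 over all genes. At day 12, 19 were lower and 7 higher, against 47.9% of all genes (24.0% lower and 23.9% higher), with medians of -0.998 and -0.01. At day 8 the differences were largest for KCNIP2 (-4.06, SE 0.47, adjusted p = 0.00154), SLC8A1 (-3.51, SE 0.35, adjusted p = 0.00104) and TRDN (-3.15, SE 0.43, adjusted p = 0.00285). At day 12 the lowest were TRDN (-2.80, adjusted p = 0.00146), HRC (-2.54, adjusted p = 0.00232) and KCNJ8 (-2.06, adjusted p = 5.19e-06), and the highest were GJA1 (1.87, SE 0.11, adjusted p = 3.2e-06), KCNA5 (1.33, SE 0.09, adjusted p = 3.55e-06) and KCNJ3 (1.14, SE 0.15, adjusted p = 0.000132). The genes of this paragraph were picked by the size of their difference after the values were seen. Without day 8 PFOS replicate 2 the day 8 count of 21 members was 12.

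Some members gave no detectable difference between the compounds, and their intervals say how large a difference remains possible. For HCN4 at day 12 the log2 difference was 0.03, with a 95% interval from -0.19 to 0.25 (adjusted p = 0.835), and at day 8 it was 0.25 (0.03 to 0.47, adjusted p = 0.0832). ABCC9 differed by 0.07 at day 8 (-0.18 to 0.31) and -0.05 at day 12 (-0.30 to 0.20), and ITPR1 by 0.01 (-0.31 to 0.32) and 0.13 (-0.19 to 0.44). For PLN, the brake of the pump, F-53B was below PFOS at day 8 (-1.36, adjusted p = 0.0155), while at day 12 the difference of -0.57 did not pass and its interval ran from -1.29 to 0.16 (adjusted p = 0.173). The day 8 difference of PLN was lost without either F-53B library or PFOS replicate 2, with an adjusted p of up to 0.0858. ATP2A2 was lower with F-53B than with PFOS at both days, by 0.45 (-0.71 to -0.19, adjusted p = 0.0176, and 0.137 without PFOS replicate 2) and 0.94 (-1.20 to -0.68, adjusted p = 8.63e-05). The 95% intervals are not corrected for the number of genes.

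**Figure D5:**
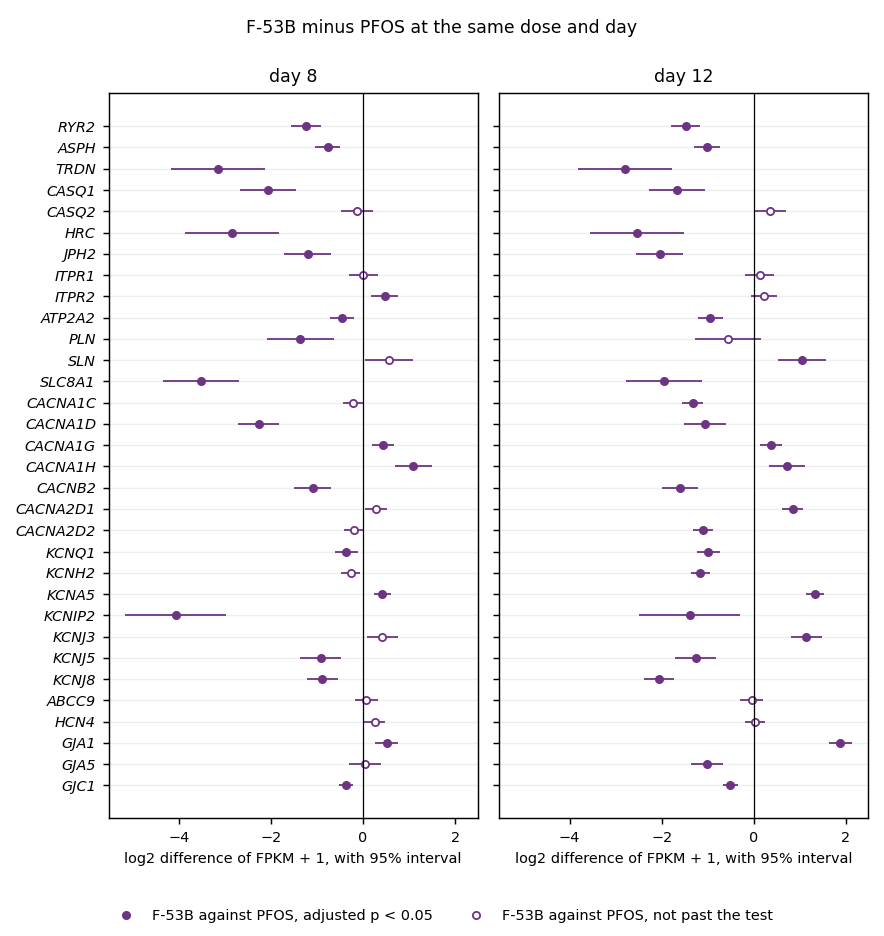
Log2 difference of FPKM + 1 between F-53B and PFOS at the same dose for each of the 32 members tested, with bars for 95% intervals, day 8 on the left and day 12 on the right; filled points passed an adjusted p of 0.05. At day 8, 16 filled points lie left of 0 and 5 right of it, at day 12 19 and 7, and HCN4 and ABCC9 sit near 0 at day 12.

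The effect of F-53B differed between the days for 8 of the 32 members, against 16.4% of all genes (9.35% higher and 7.02% lower at day 12). For CACNA1C, KCNJ8 and CACNA2D2 the log2 change was lower at day 12 than at day 8, and for CACNA1D, CACNA1G, GJA1, KCNJ3 and KCNA5 it was higher. CACNA1C had moved by -0.33 at day 8 and -1.35 at day 12, and KCNA5 by -0.14 and 1.21. Without 1 library the adjusted p of the difference reached 0.0594 for CACNA1D and 0.0966 for CACNA1G. For the effect of PFOS, limma called 0 of 32 members different between days, against 1.41% of all genes, and 5 members had an unadjusted p under 0.05 (CACNA1G, KCNH2, KCNA5, GJA1 and GJA5).

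Other genes of calcium handling and excitability included genes that fell and genes that rose. Of 73 further genes listed by role, 59 were tested: with F-53B 26 fell and 9 rose at day 8 and 28 fell and 17 rose at day 12, with median log2 changes of -0.19 and -0.23. As shares, 44.1% fell and 15.3% rose at day 8 against 20.5% and 23.5% of all genes, and 47.5% fell and 28.8% rose at day 12 against 28.0% and 28.2%, so the share that rose at day 12 was near that of all genes. With PFOS 7 fell and 2 rose at day 8 (15.3% called against 6.77% of all genes), and 8 fell and 6 rose at day 12 (23.7% against 12.3%). Within the store, SRL, the calcium-binding sarcalumenin, fell with F-53B by 2.27 and 2.46 on the log2 scale at days 8 and 12, and TMEM38A, which encodes a potassium channel of the store membrane, by 1.78 and 1.61. AKAP6, an anchor for kinase A, fell at day 12 by 1.69 with F-53B and 0.93 with PFOS. The members of these lists that rose included KCNE4, a subunit that inhibits some potassium channels, by 1.64 and 2.24 with F-53B (adjusted p = 5.54e-06 and 9.07e-08) and by 0.995 and 0.874 with PFOS (adjusted p = 0.0011 and 0.000822). CACNB3, a calcium channel subunit of the same family as CACNB2, rose by 0.88 and 1.48 with F-53B and by 0.47 and 0.57 with PFOS, where CACNB2 fell with F-53B. The PFOS calls of CACNB3 were lost without single libraries, with an adjusted p of up to 0.223 at day 8 (without PFOS replicate 1) and 0.0594 at day 12 (without DMSO replicate 1). The summed FPKM of the 15 other calcium signalling genes, calmodulins among them, was 1.1-fold and 1.09-fold lower with F-53B and 1.01-fold and 1.02-fold lower with PFOS. The 23 other sodium and potassium transport genes were 1.55-fold and 2.55-fold lower in sum with F-53B and 1.31-fold and 1.28-fold lower with PFOS. The 16 other genes of the store and its junctions summed to 1.12-fold and 1.05-fold the DMSO level with F-53B. CALR was the largest term of that sum, with a mean of 441.8 FPKM with DMSO and 580.1 with F-53B at day 8. Of the 11 genes tested on that list, 4 fell and 2 rose at day 8, and 4 fell and 4 rose at day 12. The 18 genes of membrane calcium transport were 1.01-fold and 1.15-fold lower in sum.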

How the data were processed

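RNA of 12 H9 libraries (6 groups of 2) was sequenced on a BGISEQ-500, per the series' design text. Each deposited file gives FPKM per gene with 2 decimals, computed by the authors per library. The submitters' processing notes name HISAT, Bowtie2, RSEM and GRCh38 (patch p11), without versions, roles or order, and a strand setting is not given in the sources used here. Read depth is unknown, so no counting intervals were possible, and an FPKM of 0 is given as listed.

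Of 20042 genes listed per library, 1002 held no value and 19040 did. The 14080 genes with at least 1 FPKM in 2 or more libraries were tested on log2(FPKM + 1), a scale that understates the change of low genes. A model with 6 group means and 6 residual degrees of freedom was fitted to all 12 libraries with limma 3.58.1 in R 4.3.3 (robust, with intensity trend, two-sided), giving 9 comparisons, each with Benjamini-Hochberg adjustment over all genes tested and a threshold of 0.05. An exact permutation test of 2 against 2 libraries cannot reach that threshold. Unless stated, errors are SE of log2 changes or SD over 2 libraries.

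Values per library are given for members that reached a mean of 5 FPKM in a group and passed in at least 1 comparison with DMSO, and SE at least for the 3 members with the smallest adjusted p per role and comparison; other values were chosen after they were seen, also those compared between F-53B and PFOS. The members and gene lists were chosen with earlier results of these data known. The fit was tested on simulated data. Alternatives were a pseudocount of 0.1, no filter, 2 scalings, a fit of the compared libraries alone, a replicate block and leaving out each library. Locations are from GENCODE 29 (GRCh38). Promoter windows come from RefSeq; those overlapping annotated exons by more than 30 bases were not shown. Some genes of the other pathway lists are counted but not reported by name here.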

Additional observations from a re-analysis of the deposited data

Results flagged for a closer look

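The effect of F-53B at day 12 minus that at day 8 passed limma's interaction test for 8 of 32 members. The threshold was a Benjamini-Hochberg adjusted p under 0.05, which 25% of the members and 16.4% of all genes passed. The difference in log2 change was -1.02 for CACNA1C, the Cav1.2 pore (SE 0.144, adjusted p = 0.000726), and -1.01 for KCNJ8, the Kir6.1 pore (SE 0.215, adjusted p = 0.00834). CACNA2D2, a calcium channel subunit, had -1.015 (SE 0.141, adjusted p = 0.000666). It was positive for CACNA1D, the Cav1.3 pore, at 1.24 (SE 0.288, adjusted p = 0.015), and for the T-type pore CACNA1G at 0.57 (SE 0.153, adjusted p = 0.0266). The calls of CACNA1D and CACNA1G were lost when certain single libraries were left out. KCNA5 (1.35, SE 0.121, adjusted p = 4.92e-05), KCNJ3 (1.13, SE 0.217, adjusted p = 0.00463) and GJA1 (0.74, SE 0.16, adjusted p = 0.00891) were also higher at day 12. In DMSO itself KCNJ3 and KCNA5 fell between the days and CACNA1C, KCNJ8 and GJA1 rose.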

How the results depend on the processing

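No called change of a member reversed under any alternative run. With F-53B, all 28 calls held at day 12 under every alternative, and at day 8 leaving out 1 library gave 25 to 28. With PFOS the main fit called 9 members at day 8 and 7 at day 12. Fitting only the libraries compared called 4 and 12, totals that count losses and gains together. At day 8 this fit lost ASPH, ITPR1, CACNA2D2, KCNQ1, KCNJ3 and KCNJ5 from the 9. Leaving out 1 library also moved the PFOS counts at both days. Between the compounds at day 8 (21 members), leaving out 1 library gave 12 to 25. The PFOS effect differed between days for 1 member with median-of-ratios scaling, 1 with only the libraries compared, and 0 to 1 without 1 library. Over all genes, PFOS at day 8 called 953, 437 with only the libraries compared and 170 to 956 without 1 library. Without 1 library the counts over all genes were 583 to 2024 for PFOS at day 12 (1730), 1191 to 3717 between the compounds at day 8 (3991), 3355 to 3936 over time in DMSO (5308), and 1326 to 2413 and 59 to 339 for the differences between days of the F-53B and PFOS effects (2306 and 198). Of the 59 other pathway genes, these were 23 to 29 for F-53B at day 8 (35), 2 to 9 for PFOS at day 8 (9; 5 with only the libraries compared), 6 to 14 for PFOS at day 12 (14) and 6 to 20 between the compounds at day 8 (22). The cause of these shifts was not tested, beyond fewer libraries. The share of higher calls over all genes went from 54.6% to 43.4% for PFOS at day 8 with median-of-ratios scaling. With equal FPKM totals it went from 54.3% to 40.6% for PFOS at day 12, from 47% to 59.2% and 49.9% to 59.8% between the compounds at days 8 and 12, from 53.4% to 62.3% for F-53B at day 8 and from 43.4% to 31% for the difference of PFOS effects.

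Replicate numbers are shared between groups, but the labels do not say that they pair samples, and the correlations of replicate differences between groups ran from -0.378 to 0.186. With the replicate block, 28 and 28 members were called with F-53B at days 8 and 12, 9 and 7 with PFOS, 20 and 25 between the compounds, 16 over time in DMSO, and 8 and 0 for the differences between days. Behind the count of 9, ASPH (adjusted p = 0.0584) and KCNJ3 (0.0671) were lost and PLN (0.0452) and HCN4 (0.0452) gained. Also lost were KCNQ1 (0.0505) and KCNIP2 (0.0609) between the compounds at days 8 and 12, and TRDN (0.0564), JPH2 (0.0515) and SLC8A1 (0.0699) over time in DMSO.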
